A study of Mus musculus with 18 samples.

Results

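The 7 genes described here, Procr, Fgd5, Ctnnal1, Pdzk1ip1, Clu, Cd34 and Muc13, are surface and reporter markers used to find hematopoietic stem cells (HSC) in the mouse. They form a list of gene names, and each was read from the single probe set that carries its symbol, so that 7 of the 19505 genes measured are described. The arrays cover 3 sorted populations of C57Bl/6J mice, long-term HSC (LT-HSC), short-term HSC (ST-HSC) and multipotent progenitors (MPP). Each population was taken from the fetal liver (FL) of E13.5 embryos and from the bone marrow (BM) of mice 3 to 12 months old. Cells were sorted as LSK cells, that is, negative for lineage markers and positive for Sca-1 and Kit, and divided by staining for Cd150 and Cd48. How the gates were drawn was not given in the sources used here, and none of the 7 genes is named as a sort marker. There were 6 groups of 3 arrays, lettered a, b and c, and the question was which of the markers set LT-HSC apart in FL, in BM or in both.

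LT-HSC can rebuild all blood lineages of a transplanted animal for life, ST-HSC do so for a limited time, and MPP give rise to all lineages without lasting self-renewal. In the embryo HSC expand in the fetal liver while they cycle, and after birth most of them settle in the marrow and rest. Procr encodes EPCR, the receptor of protein C, and Cd34 a sialomucin that adult mouse LT-HSC largely lack and fetal HSC carry. Muc13 is a transmembrane mucin. Pdzk1ip1 encodes MAP17, a small membrane protein that binds PDZ domain proteins. Reporter alleles that label HSC have been built in Fgd5, which encodes an exchange factor for the GTPase Cdc42, in Ctnnal1, which encodes the catenin-like protein alpha-catulin, in Pdzk1ip1, and in Clu, which encodes the secreted chaperone clusterin.

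RefSeq promoter windows on GRCm38.p6 matched 6 of the 7 genes. Clu was not matched. Shown here are the windows of the 3 genes whose difference between LT-HSC and another population depended on the source in the test below, Pdzk1ip1, Cd34 and, for the first of its 2 listed starts, Muc13. Each is the 250 bases before the transcription start on the plus strand, 5′ to 3′, at chr4:115088458-115088707, chr1:194938571-194938820 and chr16:33793787-33794036 in that order, with motif matches in capitals.
Pdzk1ip1: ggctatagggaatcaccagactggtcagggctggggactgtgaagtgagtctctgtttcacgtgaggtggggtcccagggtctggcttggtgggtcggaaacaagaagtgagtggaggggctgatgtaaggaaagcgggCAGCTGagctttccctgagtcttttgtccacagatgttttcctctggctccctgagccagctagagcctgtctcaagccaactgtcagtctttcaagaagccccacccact
Cd34: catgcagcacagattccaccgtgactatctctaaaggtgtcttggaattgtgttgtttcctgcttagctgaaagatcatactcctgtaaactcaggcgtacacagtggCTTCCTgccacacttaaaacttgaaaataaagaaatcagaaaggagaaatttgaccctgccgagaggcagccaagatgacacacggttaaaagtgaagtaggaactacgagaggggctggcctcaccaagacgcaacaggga
Muc13: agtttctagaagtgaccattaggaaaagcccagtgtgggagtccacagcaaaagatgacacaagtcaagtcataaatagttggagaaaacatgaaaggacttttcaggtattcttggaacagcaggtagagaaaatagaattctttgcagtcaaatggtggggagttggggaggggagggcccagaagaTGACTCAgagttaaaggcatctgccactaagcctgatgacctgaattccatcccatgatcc
On both strands 7 motifs were searched: GATAA for GATA factors, TGTGGT for RUNX, AGGAAG for ETS, CAGCTG as an E-box, GGGCGG as a GC box, TATAAA as a TATA box and TGANTCA for AP-1. The capitals mark 1 E-box in the Pdzk1ip1 window at bases -111 to -106 from the start, 1 ETS match in the Cd34 window at -142 to -137 and 1 AP-1 match in the Muc13 window at -61 to -55. Among all 32851 windows of this length an E-box stood in 13.0%, an ETS match in 29.5% and an AP-1 match in 6.75%. The window of the other Muc13 start also held 1 AP-1 match, at -179 to -173. Of the windows not shown, that of Fgd5 held 5 GC boxes and that of Ctnnal1 held 3, against 32.7% of all windows with at least 1. The 3 motifs marked above stood in windows not shown too. That of Procr held 1 E-box at -34 to -29 and 1 AP-1 match at -154 to -148, and that of Fgd5 held 1 ETS match at -186 to -181. No window of the 6 genes held the letters searched for GATA (22.6% of all windows), RUNX (14.0%) or a TATA box (12.4%). CpG pairs numbered 31 in the Fgd5 window, 18 in that of Ctnnal1 and 13 in that of Procr. They numbered 3 in that of Pdzk1ip1, 6 in that of Cd34 and 0 and 4 in those of the 2 Muc13 starts. The median over all windows was 6. No 2 of these matches overlapped, and a match is a description of the letters only.

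The median log2 signal was 7.68 to 7.78 in every array, and Pearson's r between arrays of 1 group, taken over genes, was 0.960 to 0.994. The interquartile range was 2.98 to 3.18 in 14 arrays and 2.61 to 2.71 in FL LT-HSC b, BM ST-HSC b, BM ST-HSC c and BM LT-HSC c. BM LT-HSC c stood apart from its group. The mean of 10 neutrophil markers was 12.60 there against 11.19 and 11.39 in the other BM LT-HSC arrays, the mean of 10 macrophage markers was 8.61 against 7.54 to 7.7, and Cd48, on which the cells were sorted, read 11.40 against a lowest value of 9.58. Results on the 7 genes, and on LT-HSC against MPP in BM for other genes, are therefore also given without this array where that changes a call, or moves a difference that is printed by more than 1.5 times, and the part of these other signals in the results was not tested. The 2 markers that divide the populations otherwise followed their labels: Slamf1, which encodes Cd150, averaged 9.31 in LT-HSC, 7.49 in ST-HSC and 6.71 in MPP of FL, and 9.66, 8.04 and 7.25 in those of BM. Cd48 averaged 12.35 in MPP of FL, 12.26 in MPP of BM and 9.79 to 10.32 in the 4 stem cell groups. Kit, for which all LSK cells are positive, averaged 13.1 to 13.3 in the 6 groups. Ly6a, which encodes Sca-1, had no probe set that carried its symbol and was not read. GEO's description field names transplanted mice and guide RNAs, sgEzh2 for 4 FL arrays (LT-HSC a, ST-HSC a, MPP a and MPP b) and sgLuc for the rest, which goes against the titles, source names and stages used here. Ezh2 itself read 10.56 to 10.72 in those 4 arrays and 10.54 to 10.83 in the other 5 FL arrays. The labels do not say whether the arrays lettered a, b and c hold different animals, and the p-values therefore measure the spread between these arrays, which may be technical. In sorted bulk RNA a gene carried by fewer cells and one carried at a lower level per cell cannot be told apart.

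**Figure D1:**
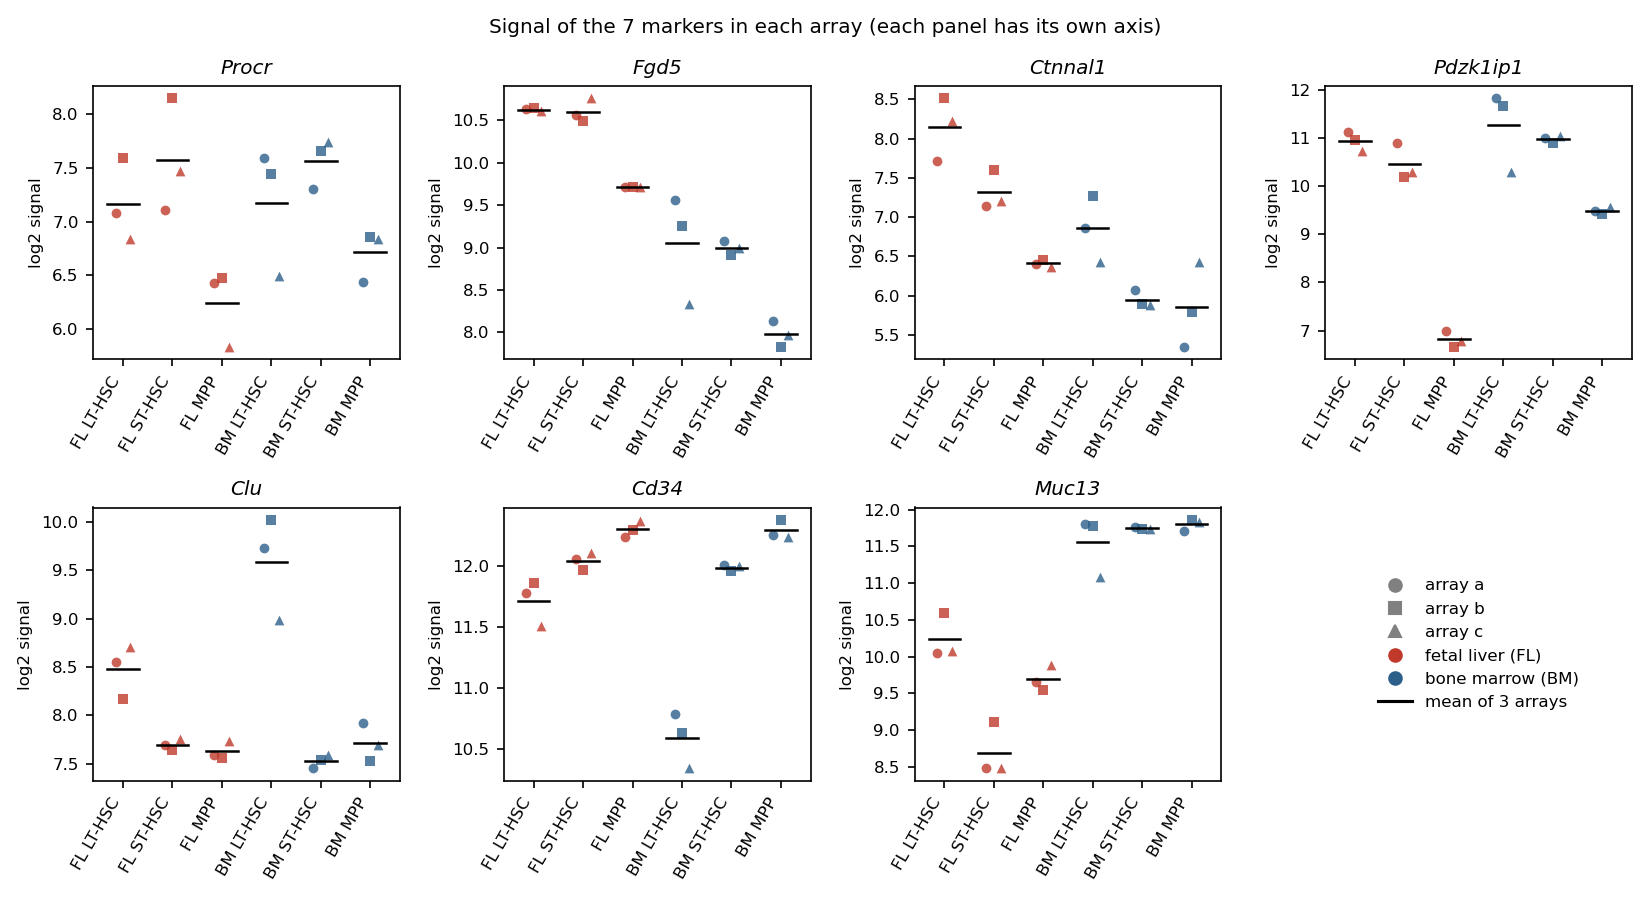
Log2 signal of each of the 7 genes (one panel each, with its own vertical axis) in the 18 arrays, by group on the horizontal axis; symbols stand for arrays a, b and c, red for FL, blue for BM, and the black line for the mean of 3 arrays. Clu is high in the 3 BM LT-HSC arrays (8.99 to 10.02), Cd34 is at its lowest there (10.34 to 10.79), and Pdzk1ip1 is low in the 3 FL MPP arrays (6.66 to 7.0).

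In FL, LT-HSC carried more Pdzk1ip1, Ctnnal1, Fgd5 and Clu and less Cd34 than MPP, and more Muc13 than ST-HSC. In BM, LT-HSC carried more Clu, Pdzk1ip1, Fgd5 and Ctnnal1 and less Cd34 than MPP, and more Clu and less Cd34 than ST-HSC. These differences passed limma's test, fitted to 18 arrays, at 0.05 after Benjamini-Hochberg adjustment over 19505 genes, and a marker is said to separate 2 groups where, in addition, the 3 arrays of one all lay above the 3 of the other. Pdzk1ip1, Fgd5, Clu and Cd34 separated LT-HSC from MPP in both sources, and Ctnnal1 did so in FL only, since 1 BM MPP array reached the lowest BM LT-HSC array, which was array c. Without array c, Ctnnal1 separated LT-HSC from MPP in BM too. Against ST-HSC, Clu and Cd34 separated LT-HSC in BM and Muc13 in FL. With all 18 arrays Procr passed neither test of LT-HSC in either source. Its mean signal stood at the 36.5th percentile of all genes, with Ctnnal1 at the 30.6th, and its SE of 0.29 was the largest of the 7. The part of this level and spread in the missing calls was not tested. By the span of its 6 group means each of the 7 genes stood high among all genes, from the 94.57th percentile for Procr (a span of 1.34) to the 99.87th for Pdzk1ip1 (a span of 4.45).

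**Figure D2:**
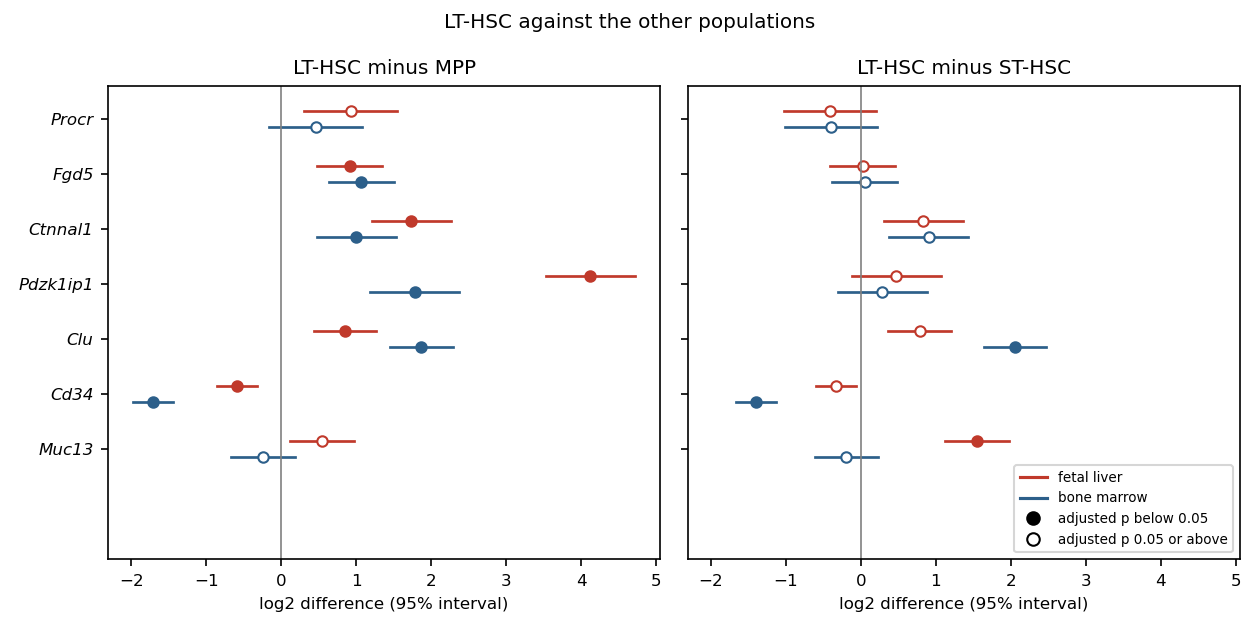
Log2 difference of LT-HSC minus MPP (left) and LT-HSC minus ST-HSC (right) for each gene, with 95% intervals from limma's fit of 18 arrays; red stands for FL, blue for BM, and filled circles for an adjusted p under 0.05. Pdzk1ip1 against MPP in FL (4.12) lies farthest to the right, and the right panel has 3 filled circles, Clu and Cd34 in BM and Muc13 in FL.

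Cd34 was lowest in adult LT-HSC and next lowest in fetal LT-HSC, relative to the other groups. Its signal still stood at the 91.3rd percentile of all genes in BM LT-HSC and at the 97.6th in FL LT-HSC. These are RNA signals, and the protein on the cell surface was not measured. In FL its log2 signal was 11.78, 11.86 and 11.51 in LT-HSC arrays a, b and c, 12.06, 11.97 and 12.11 in ST-HSC and 12.24, 12.30 and 12.37 in MPP. In BM it was 10.79, 10.63 and 10.34 in LT-HSC, 12.01, 11.96 and 12.00 in ST-HSC and 12.26, 12.38 and 12.24 in MPP. The 3 BM LT-HSC arrays lay below the other 15, the 3 FL LT-HSC arrays lay next and below the other 12, and the ST-HSC groups of both sources overlapped, as did the MPP groups. The BM LT-HSC difference was -1.71 ± 0.13 (SE) from BM MPP, which is 3.27-fold lower (adjusted p = 2.13e-07), and -1.40 ± 0.13 from BM ST-HSC (adjusted p = 7.02e-06). In FL the drop from MPP to LT-HSC was smaller, -0.59 ± 0.13 (adjusted p = 0.0107), and it no longer passed without FL MPP c (adjusted p = 0.063) or FL LT-HSC c (adjusted p = 0.0722). FL LT-HSC and FL ST-HSC differed by -0.33 ± 0.13 with arrays that did not overlap, which did not pass (adjusted p = 0.439). The difference between sources itself was tested as an interaction: the LT-HSC to MPP step was 1.12 ± 0.18 less negative in FL (adjusted p = 0.00578), and the LT-HSC to ST-HSC step 1.07 ± 0.18 less negative (adjusted p = 0.00789). Cd34 was higher in FL than in BM LT-HSC by 1.13 ± 0.13 (adjusted p = 1.13e-05), while the interval for FL minus BM was -0.21 to 0.32 in ST-HSC and -0.26 to 0.28 in MPP.

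Procr, the EPCR gene, read 7.08, 7.59 and 6.84 in the LT-HSC arrays of FL, 7.11, 8.15 and 7.47 in its ST-HSC and 6.43, 6.47 and 5.83 in its MPP. The BM values were 7.59, 7.44 and 6.49 in LT-HSC, 7.30, 7.66 and 7.74 in ST-HSC and 6.44, 6.86 and 6.84 in MPP. The ST-HSC means, 7.58 ± 0.53 (SD, n = 3) in FL and 7.57 ± 0.23 in BM, were the highest, the LT-HSC means were 7.17 in both sources, and every group overlapped its neighbour in the order of means. The BM LT-HSC mean was 7.51 without array c, close to that of BM ST-HSC. Fetal ST-HSC carried more Procr than fetal MPP, by 1.34 ± 0.29 (adjusted p = 0.0183), and the adjusted p rose to 0.0951 when ST-HSC b was left out, to 0.12 for MPP c and to 0.0563 for ST-HSC c. For LT-HSC against MPP the difference was 0.93 ± 0.29 in FL, with no overlap of arrays and an adjusted p of 0.107, and 0.46 ± 0.29 in BM (adjusted p = 0.482). Without BM LT-HSC c the BM difference from MPP was 0.80 ± 0.27 with no overlap (adjusted p = 0.112), and LT-HSC minus ST-HSC in BM moved from -0.40 to -0.06 (adjusted p = 0.925). Leaving out BM LT-HSC c, which is in neither FL group but in the shared estimate of the spread, brought the same FL difference to an SE of 0.24 and an adjusted p of 0.0304, and BM ST-HSC then exceeded BM MPP by 0.85 (adjusted p = 0.0321, against 0.0936 with all arrays). Between sources the LT-HSC difference was close to 0, with a 95% interval of -0.62 to 0.62, and without BM LT-HSC c it was -0.34 ± 0.27 (adjusted p = 0.514).

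Muc13 was lower in FL than in BM in all 3 populations, and in FL it was highest in LT-HSC. In FL it read 10.05, 10.60 and 10.08 in LT-HSC, 8.48, 9.11 and 8.48 in ST-HSC and 9.66, 9.55 and 9.89 in MPP. In BM the values were 11.80, 11.78 and 11.09 in LT-HSC, 11.77, 11.74 and 11.74 in ST-HSC and 11.71, 11.86 and 11.83 in MPP. All 9 BM arrays lay above all 9 FL arrays, the 3 BM groups overlapped, and the 3 FL groups did not overlap, with LT-HSC highest and ST-HSC lowest. FL LT-HSC were higher than FL ST-HSC by 1.55 ± 0.20 (2.93-fold, adjusted p = 0.000642), the second largest upward difference of all genes in that comparison. FL ST-HSC minus FL MPP was -1.01 ± 0.20 (adjusted p = 0.0101), which did not pass without FL ST-HSC a (adjusted p = 0.0606), FL ST-HSC c (adjusted p = 0.0633) or FL MPP c (adjusted p = 0.0711), and FL LT-HSC exceeded FL MPP by 0.54 ± 0.20 (adjusted p = 0.194). In BM the LT-HSC to ST-HSC difference was -0.19 ± 0.20, and 0.04 ± 0.19 without BM LT-HSC c (adjusted p = 0.916), and the interaction of 1.74 ± 0.29 passed (adjusted p = 0.00754). FL minus BM was -1.31 ± 0.20 in LT-HSC, -3.06 ± 0.20 in ST-HSC (8.32-fold lower) and -2.10 ± 0.20 in MPP (adjusted p = 0.000338, 1.82e-08 and 2.12e-06). The mean of 10 neutrophil markers was also split by source, at 6.40 to 7.54 in the FL arrays and 10.10 to 12.60 in the BM arrays, and its part in the Muc13 difference was not tested.

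Pdzk1ip1, the MAP17 gene, gave the largest difference of the 7 genes over the 11 comparisons, and the low group was the fetal MPP. FL LT-HSC read 11.13, 10.95 and 10.72, FL ST-HSC 10.90, 10.18 and 10.30 and FL MPP 7.0, 6.66 and 6.78. The BM arrays read 11.82, 11.67 and 10.29 in LT-HSC, 11, 10.89 and 11.04 in ST-HSC and 9.48, 9.41 and 9.57 in MPP. The 3 FL MPP arrays lay far below the other 15 and the BM MPP arrays next, whereas the LT-HSC and ST-HSC groups of both sources overlapped. FL LT-HSC exceeded FL MPP by 4.12 ± 0.28 (17.4-fold, adjusted p = 1.03e-07), the largest upward difference of all 19505 genes, and FL ST-HSC exceeded FL MPP by 3.65 ± 0.28 (adjusted p = 2.08e-06), again the largest. In BM the same steps were 1.78 ± 0.28 (3.43-fold, adjusted p = 0.000858) and 1.49 ± 0.28 (adjusted p = 0.00509). The LT-HSC to MPP step was larger in FL by 2.34 ± 0.40 (adjusted p = 0.00849), and of the 3 populations MPP alone passed between sources with all 18 arrays, with FL minus BM at -2.67 ± 0.28 (6.36-fold lower, adjusted p = 7.19e-06). With all 18 arrays LT-HSC and ST-HSC were not separated: the 95% interval of their difference was -0.12 to 1.07 in FL and -0.31 to 0.88 in BM. BM LT-HSC c read 10.29 against 11.82 and 11.67 in its group, and without it the BM LT-HSC to ST-HSC difference was 0.77 ± 0.18 (adjusted p = 0.0238) and FL minus BM LT-HSC was -0.81 (adjusted p = 0.00728), both with no overlap. FL minus BM ST-HSC, -0.52 in either fit, then also passed (adjusted p = 0.0266, against 0.2 with all arrays). The mean of the 9 measured genes of a list of 10 erythroid markers was also lowest in FL MPP, at 7.75 to 8.10, and stood at 8.42 to 8.55 in BM MPP and 8.38 to 10.43 in the stem cell arrays, and its part in the Pdzk1ip1 differences was not tested.

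Fgd5 followed both axes at once, higher in FL than in BM and higher in both stem cell groups than in MPP. Its FL signal was 10.63, 10.65 and 10.61 in LT-HSC, 10.57, 10.49 and 10.76 in ST-HSC and 9.72, 9.72 and 9.71 in MPP. Its BM signal was 9.56, 9.25 and 8.34 in LT-HSC, 9.08, 8.91 and 9.0 in ST-HSC and 8.14, 7.83 and 7.97 in MPP. Every FL array lay above every BM array, MPP arrays lay below the stem cell arrays of their source, and LT-HSC and ST-HSC overlapped in both sources, in BM through LT-HSC array c. LT-HSC exceeded MPP by 0.91 ± 0.21 in FL (adjusted p = 0.0163) and 1.07 ± 0.21 in BM (adjusted p = 0.00459), and ST-HSC exceeded MPP by 0.89 ± 0.21 in FL (adjusted p = 0.027) and 1.02 ± 0.21 in BM (adjusted p = 0.00746). The interval for LT-HSC minus ST-HSC was -0.41 to 0.46 in FL and -0.38 to 0.49 in BM. Without BM LT-HSC c, LT-HSC lay above ST-HSC in BM with no overlap, by 0.41 ± 0.13 (adjusted p = 0.0874). FL exceeded BM by 1.58 ± 0.21 in LT-HSC, 1.61 ± 0.21 in ST-HSC and 1.74 ± 0.21 in MPP (3.33-fold, adjusted p = 2.36e-05). The FL calls against MPP depended on the arrays in the fit. Leaving out any 1 of the 6 arrays compared raised the adjusted p to between 0.0509 and 0.0649 for LT-HSC and between 0.0514 and 0.121 for ST-HSC, with differences of 0.81 to 0.94. BM LT-HSC c is in no FL group but in the shared estimate of the spread. Without it the same FL differences had an SE of 0.12 and an adjusted p of 5.19e-05 for LT-HSC and 0.0001235 for ST-HSC. The BM call for ST-HSC was lost without BM MPP b (adjusted p = 0.0528).

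Within each source Ctnnal1 had its highest mean in LT-HSC, and in FL it stepped down over ST-HSC to MPP. Its means were higher in FL. FL LT-HSC read 7.71, 8.51 and 8.22, FL ST-HSC 7.14, 7.60 and 7.21 and FL MPP 6.40, 6.46 and 6.37. In BM, LT-HSC read 6.86, 7.27 and 6.43, ST-HSC 6.07, 5.89 and 5.88 and MPP 5.35, 5.79 and 6.43. The 3 FL groups did not overlap, BM LT-HSC lay above BM ST-HSC in all arrays, and BM MPP c reached the lowest BM LT-HSC array. BM ST-HSC and BM MPP overlapped, with a difference of 0.09 ± 0.25 (adjusted p = 0.854). FL LT-HSC exceeded FL MPP by 1.73 ± 0.25 (3.33-fold, adjusted p = 0.000294). BM LT-HSC exceeded BM MPP by 1.0 ± 0.25 (adjusted p = 0.0275), which did not pass without MPP a (adjusted p = 0.153) or MPP b (0.113), nor without LT-HSC a (0.0671) or LT-HSC b (0.104) of BM. With all arrays and repeated quantile normalization it was 0.88 and did not pass either (adjusted p = 0.0843). LT-HSC minus ST-HSC was 0.83 ± 0.25 in FL (adjusted p = 0.238) and 0.91 ± 0.25 in BM (adjusted p = 0.0757), and without BM LT-HSC c the latter was 1.12 (adjusted p = 0.0202), and BM LT-HSC minus BM MPP was 1.21 with no overlap (adjusted p = 0.00614). In the same fit FL ST-HSC minus FL MPP, 0.90 in both, passed (adjusted p = 0.0296, against 0.0717). FL exceeded BM by 1.29 ± 0.25 in LT-HSC (adjusted p = 0.00263) and 1.36 ± 0.25 in ST-HSC (adjusted p = 0.00136), whereas MPP differed by 0.56 ± 0.25 (adjusted p = 0.277). Without the 4 arrays of narrowest spread the LT-HSC difference was smaller, at 0.895.

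Clu was high in LT-HSC of both sources, more so in BM, and lay at one level in the other populations. Its FL signal was 8.55, 8.17 and 8.71 in LT-HSC, 7.69, 7.64 and 7.75 in ST-HSC and 7.59, 7.56 and 7.73 in MPP. Its BM signal was 9.73, 10.02 and 8.99 in LT-HSC, 7.45, 7.54 and 7.59 in ST-HSC and 7.92, 7.53 and 7.69 in MPP. The BM LT-HSC arrays lay above the other 15, the FL LT-HSC arrays lay next with no overlap on either side, and the 12 remaining arrays lay together between 7.45 and 7.92. BM LT-HSC exceeded BM ST-HSC by 2.05 ± 0.20 (4.15-fold, adjusted p = 1.67e-05) and BM MPP by 1.87 ± 0.20 (3.65-fold, adjusted p = 1.59e-05). FL LT-HSC exceeded FL MPP by 0.85 ± 0.20 (adjusted p = 0.0203), and by the same difference without BM LT-HSC c (adjusted p = 0.000766). The call was lost without FL LT-HSC c (a difference of 0.73, adjusted p = 0.116), FL LT-HSC a, or any 1 FL MPP array (adjusted p = 0.0517 to 0.0884). FL LT-HSC minus FL ST-HSC was 0.78 ± 0.20 with no overlap (adjusted p = 0.117), and without BM LT-HSC c the same difference passed (adjusted p = 0.00593). BM LT-HSC carried more Clu than FL LT-HSC, with FL minus BM at -1.11 ± 0.20 (adjusted p = 0.00139). The interactions, FL minus BM, were -1.02 ± 0.28 for the step against MPP (adjusted p = 0.152) and -1.27 ± 0.28 for the step against ST-HSC (adjusted p = 0.0595). Without BM LT-HSC c, where Clu read 8.99 against 9.73 and 10.02, both interactions passed, at -1.31 (adjusted p = 0.00246) and -1.56 (adjusted p = 0.00093). The mean of the 9 measured genes of a list of 10 megakaryocyte markers was also highest in BM LT-HSC, though not in the same order elsewhere, at 9.15 to 9.73 in BM LT-HSC, 8.02 to 8.34 in BM ST-HSC, 7.7 to 7.92 in BM MPP, 8.06 to 8.25 in FL LT-HSC and 7.48 to 7.60 in the other FL arrays, and its part in the Clu difference was not tested.

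**Figure D3:**
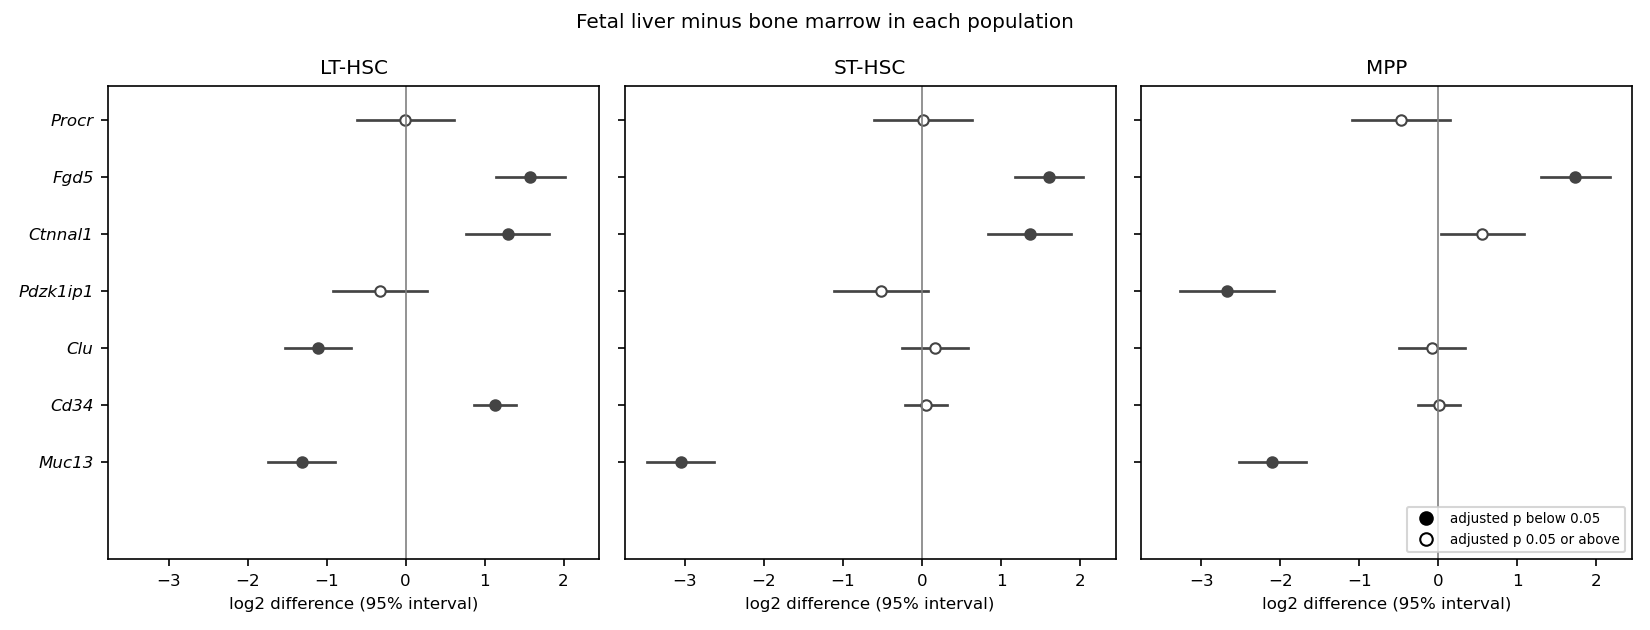
Log2 difference of FL minus BM for each gene in LT-HSC, ST-HSC and MPP (panels), with 95% intervals from limma's fit; filled circles mark an adjusted p under 0.05. Fgd5 lies to the right and Muc13 to the left in all 3 panels, Clu and Cd34 leave 0 in LT-HSC alone, and Pdzk1ip1 leaves 0 in MPP at -2.67.

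Counted over the set, 5 of the 7 genes passed for LT-HSC against MPP in FL, where 3.40% of all genes were called, and 5 of 7 in BM, where 4.57% were called. The median difference of the 7 was 0.91 in FL and 1.0 in BM, against -0.01 over all genes in both. For LT-HSC against ST-HSC, 1 of 7 passed in FL (0.559% of all genes) and 2 of 7 in BM (1.71% of all genes). For ST-HSC against MPP, 4 of 7 passed in FL (2.26% of all genes) and 2 of 7 in BM (6.10% of all genes). Between sources, 5 of 7 passed in LT-HSC (7.66% of all genes), 3 of 7 in ST-HSC (18.7% of all genes) and 3 of 7 in MPP (5.47% of all genes). The interaction of source with the LT-HSC to MPP step passed for 2 of 7 (0.543% of all genes), Pdzk1ip1 and Cd34, and that with the LT-HSC to ST-HSC step for 2 of 7 (0.379% of all genes), Muc13 and Cd34. The comparisons share arrays, so these counts are not independent of each other. In fits of only the groups compared, the BM calls against MPP of Fgd5 (adjusted p = 0.146), Ctnnal1 (0.189) and Pdzk1ip1 (0.0618), the BM call against ST-HSC of Clu (0.0586), the FL to BM calls in LT-HSC of Ctnnal1 (0.0565) and Clu (0.1) and the interactions of Cd34 (0.0814) and Muc13 (0.0777) against ST-HSC did not pass. With the 4 sgEzh2 arrays left out, so that FL MPP keeps 1 array, the LT-HSC calls against MPP in FL of Fgd5, Clu and Cd34, the ST-HSC calls against MPP in FL of Procr, Fgd5 and Muc13, the BM call against MPP of Ctnnal1 and the 4 interaction calls did not pass (adjusted p = 0.0652 to 0.753), while the differences kept their signs. The 4 interactions were then 2.28 and 1.02 against MPP for Pdzk1ip1 and Cd34, and 1.05 and 1.73 against ST-HSC for Cd34 and Muc13, close to their values with all arrays.

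The 7 patterns over the 6 group means differed from each other, and each was set beside the genes closest to it among the 2068 genes whose group means spanned at least 1 on the log2 scale. The likeness is Pearson's r over the 6 means, which come from the same arrays for all genes, and is given as a description. Procr was nearest to Susd4 (0.977), Ifit1bl1 (0.977) and Atp10d (0.972). Fgd5 was nearest to Plag1 (0.994), Sox18 (0.993) and Wdfy3 (0.993). Plag1 encodes a zinc finger transcription factor and Sox18 one of endothelial cells. For Ctnnal1 the nearest were Plek2 (0.995), Efemp1 (0.984) and Podxl (0.981), and Podxl encodes podocalyxin, a sialomucin related to Cd34. Pdzk1ip1 was nearest to Fkbp9 (0.974), Tbxas1 (0.971), which encodes thromboxane synthase, and Cldn13 (0.970). Clu was nearest to Ufsp1 (0.991), Adgrg2 (0.985) and Lima1 (0.984). For Cd34 the nearest were Tespa1 (0.964), Mei4 (0.958) and Satb1 (0.957), a chromatin organizer of lymphoid cells. Satb1 averaged 7.84 in BM LT-HSC and 9.15 in FL LT-HSC, against 10.49 for MPP of FL and 10.52 for MPP of BM. Muc13 was nearest to Zg16 (0.970), Sos2 (0.964) and Cd14 (0.956).

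Other HSC markers were read from lists of known names. Of 28 measured surface markers, 9 were higher and 1 lower in LT-HSC than in MPP in FL, where 3.40% of all genes were called. In BM, where 4.57% were called, 9 were higher and 1 lower. The median differences were 0.36 in FL and 0.30 in BM. Without BM LT-HSC c, 13 were higher and 2 lower in BM, and Tie1, a receptor also of endothelial cells, went from 0.93 (adjusted p = 0.1) to 1.47 (adjusted p = 3.3e-05). The largest were Slamf1, by 2.60 in FL and 2.41 in BM, and Cdh5, which encodes VE-cadherin, by 2.47 and 2.01. Slamf1 encodes Cd150, on which the cells were sorted, so its calls are not independent of the sort. Tek, the angiopoietin receptor, was higher by 2.28 and 1.29, and Selp, which encodes P-selectin, by 1.60 in FL, while Cd86 was lower in FL (-0.85) and Cd93 lower in BM (-0.85). Against ST-HSC, 2 of the 28 were higher and 1 lower in FL, where 0.559% of all genes were called. In BM, where 1.71% were called, 5 were higher (9 higher and 1 lower without BM LT-HSC c). Slamf1 was among those higher in both sources (1.82 and 1.62). Of 15 other genes used for HSC reporters, 4 were higher in FL LT-HSC than in MPP and 6 in BM, with medians of 0.37 and 0.58, and without BM LT-HSC c 10 in BM with a median of 1.03, Gata2 and Krt18 among the gains (1.21 and 1.03). Among them Mecom, a transcription factor of HSC, was higher by 2.29 in FL and 1.09 in BM, and Vwf, which marks platelet-biased HSC, by 1.16 and 2.25. Pf4, a platelet chemokine gene, was higher by 1.41 and 2.93. Of 14 surface markers of progenitors, 7 were lower in FL LT-HSC than in FL MPP and 4 in BM, with medians of -1.12 and -0.36, and 8 in BM with a median of -0.74 without BM LT-HSC c. Among them was Cd48, on which the cells were also sorted. The cytokine receptor gene Flt3 was lower in both (-1.98 in FL and -2.91 in BM), as was Cd244a (-1.65 and -1.84). Csf1r (-2.84), Fcgr3 (-2.91) and Il7r (-2.69) were lower in FL, where BM gave no call for these 3 genes. Without BM LT-HSC c the BM differences went from -0.25 to -0.73 for Csf1r (adjusted p = 0.0387), from -0.18 to -0.80 for Fcgr3 (adjusted p = 0.0548) and from -0.69 to -1.14 for Il7r (adjusted p = 0.00207). The mean of 9 endothelial markers was in FL 7.84 to 8.03 for LT-HSC, 7.7 to 8.15 for ST-HSC and 7.01 to 7.13 for MPP, and 7.54 to 7.81 in BM LT-HSC against 6.70 to 6.95 in the other BM arrays. Cdh5 and Tie1 stand in that list too, and its part in these differences was not tested.

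**Figure D4:**
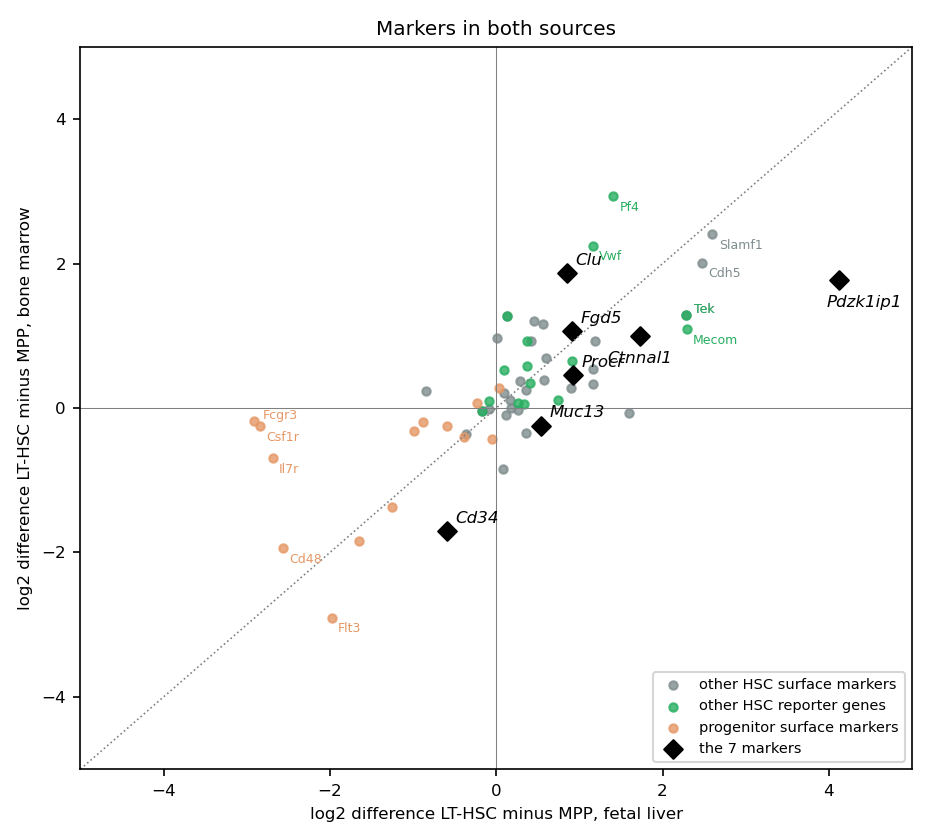
Log2 difference of LT-HSC minus MPP in FL (horizontal) against BM (vertical) for the 7 genes (black diamonds) and for other HSC surface markers, HSC reporter genes and progenitor surface markers (circles); the dotted line marks equal differences, and genes past 1.9 in either source are named. Pdzk1ip1 lies below the line (4.12 and 1.78), Clu above it with Pf4 and Vwf, and Cd34 on the negative side with Flt3 and Cd48. Slamf1 and Cd48 encode markers of the sort.

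Genes that work with the members were read in the same way. Measured were 11 genes of coagulation and of the protein C pathway, which EPCR serves. Of these, 2 were higher in FL LT-HSC than in MPP and 4 in BM, with medians of 0.17 and 0.47. Of all genes 3.40% were called in FL and 4.57% in BM. Coagulation factor V, F5, was higher by 1.04 and 1.48, and prothrombin, F2, by 0.78 in FL. In BM protein S, Pros1, was higher by 1.3, the protease-activated receptor F2rl2 by 1.49 and tissue factor pathway inhibitor, Tfpi, by 0.75. The call of Tfpi was lost (0.55, adjusted p = 0.0795) and that of the thrombin receptor F2r gained (0.79, adjusted p = 0.000394) without BM LT-HSC c. Among 11 sialomucins and mucins other than the members, Podxl was higher in LT-HSC by 0.91 in FL and 0.75 in BM, Cd164 was lower in FL (-0.52) and Cd44 lower in BM (-0.68). Of 11 genes of the FGD family and of Cdc42 regulation, Fgd2, another exchange factor, was lower in both sources (-0.56 in FL and -0.64 in BM), and the Cdc42 effector Cdc42ep5 was higher by 0.54 in FL. Of 10 catenins, cadherins and partners, Cdh5 was called in both sources (above), the actin linker vinculin, Vcl, was higher by 0.99 in BM, and Cdh17, a cadherin also found on B lineage cells, was lower in FL (-3.77). A list of 7 genes held PDZ partners of MAP17 and the TGF-beta signaling genes Smad4, Tgfbr1 and Tgfbr2. Of these 7, limma called 0 in either source, with 1 in FL and 3 in BM at an unadjusted p under 0.05. Of 8 genes in a list of clusterin receptors, apolipoproteins and A2m, Apoe was higher by 1.06 in FL and 0.65 in BM. The receptor gene Vldlr was lower in BM (-0.88). Apoe was also higher in LT-HSC than in ST-HSC, by 0.82 in FL and 1.0 in BM. F2, F5, Pros1 and Apoe are also expressed by liver cells: the mean of 10 hepatocyte markers was 7.87 to 9.23 in FL LT-HSC, highest in array c, against 7.94 to 8.17 in FL MPP and 7.38 to 7.71 in the BM arrays, and its part in these differences was not tested.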

How the data were processed

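RNA of 18 sorted samples was hybridised to mouse Clariom S arrays from 2 ng of RNA with 10 cycles of PCR before transcription, per the labels' protocols. What the authors deposited is a table of log2 signals of probe sets, computed in R 3.5.01 with oligo, per the submitters' processing notes. Neither normalization nor background correction was given in the sources used here. Of 22203 probe sets, 19572 carried 1 symbol in the platform annotation and 2631 none. Where a gene had several, the one with the highest mean was used, which set aside 67 and left 19505 genes.

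The 7 genes, the gene lists and the tests were chosen with earlier results of these data known. A model of group means was fitted with limma 3.58.1 (lmFit, eBayes; R 4.3.3) to the 18 arrays, with 11 contrasts and Benjamini-Hochberg adjustment over all genes at 0.05. Intervals are 95% intervals of this fit. Precision is limited by the number of arrays, with a median SE of 0.17 for 3 arrays against 3 and 0.24 for an interaction. An exact permutation test of 3 arrays against 3 cannot give a two-sided p below 0.1 and was not used. Named are the 7 genes, the 3 genes nearest to each in pattern, the sort genes, up to 4 genes per list with the largest LT-HSC to MPP difference, and all called genes of a list with 5 or fewer. Genes next to each member were chosen after the data were seen. The RefSeq tables of GRCm38.p6 gave names, gene order and promoter windows.

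Alternatives left out each array in turn, centred arrays, repeated quantile normalization, dropped the dimmest 30% of genes, averaged probe sets, used array weights or a robust trend, fitted only the groups compared, added a replicate block, or left out the 4 arrays described as sgEzh2 or the 4 of narrowest spread.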

Additional observations from a re-analysis of the deposited data

Results flagged for a closer look

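A difference between the sources in the step from LT-HSC to another population was found by limma's interaction test for 3 of the 7 genes. For Pdzk1ip1 the LT-HSC to MPP step was larger in FL than in BM by 2.34 ± 0.40 (SE, adjusted p = 0.00849), and for Cd34 it was less negative in FL by 1.12 ± 0.18 (adjusted p = 0.00578). For Cd34 the LT-HSC to ST-HSC step was less negative in FL by 1.07 ± 0.18 (adjusted p = 0.00789, and 0.0814 with only the groups compared in the fit). Without the 4 arrays of narrowest spread this Cd34 interaction was 0.899. For Muc13 the LT-HSC to ST-HSC step was higher in FL by 1.74 ± 0.29 (adjusted p = 0.00754, and 0.0777 with only the groups compared). Without the 4 arrays described as sgEzh2 these 4 values were 2.28 ± 0.53, 1.02 ± 0.26, 1.05 ± 0.23 and 1.73 ± 0.34, close to those with all arrays but with larger errors, and their adjusted p was 0.357, 0.449, 0.189 and 0.0964.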

How the results depend on the processing

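Of the 77 differences of the 7 genes over 11 comparisons, 34 passed, of which 17 passed in each of the 28 alternative settings and 17 were lost in at least 1, while 11 others were gained in some. Of 2156 recomputed differences 55 changed sign, 0 of them with a call in either fit. The count of genes that passed for LT-HSC against MPP in FL was 5 of 7, against 2 without the 4 arrays described as sgEzh2 and 2 to 6 when 1 array was left out. For LT-HSC against ST-HSC in FL it was 1, against 2 after repeated quantile normalization, with array weights and without the 4 arrays of narrowest spread, and 1 to 2 when 1 array was left out. For ST-HSC against MPP in FL it was 4, against 1 without the sgEzh2 arrays and 1 to 5 when 1 array was left out. For LT-HSC against MPP in BM it was 5, against 2 when only the groups compared were fitted. For LT-HSC against ST-HSC in BM it was 2, against 4 with array weights, 1 with only the groups compared, and 2 to 4 when 1 array was left out, the highest without BM LT-HSC c. For ST-HSC against MPP in BM it was 2, against 4 with array weights and 1 to 3 when 1 array was left out. For FL against BM in LT-HSC it was 5, against 3 with only the groups compared. The LT-HSC to MPP interaction passed for 2, against 0 in limma without the sgEzh2 arrays (3 at an unadjusted p under 0.05). The LT-HSC to ST-HSC interaction passed for 2, against 0 in limma both without these arrays and with only the groups compared (3 in each at an unadjusted p under 0.05). The cause of these changes was not tested, other than that leaving out the sgEzh2 arrays leaves 1 FL MPP array, assumed to vary like the other groups. With a replicate block the counts were the same in all 11 comparisons, 5 of 7 for LT-HSC against MPP in FL among them. Arrays of 1 source with the same letter correlated in their deviations from group means at -0.46 to 0.42, over 0.1 in 4 of 18 pairs. With different letters the values were -0.54 to 0.55, over 0.1 in 9 of 36 pairs. Deviations from a mean of 3 arrays depend on each other, so these values cannot decide whether the letters pair arrays. Over all genes the count of calls moved by more than 1.5 times in 10 of 11 comparisons with array weights, 11 without the sgEzh2 arrays, 8 without the narrow arrays, 7 with only the groups compared and 7 without BM LT-HSC c.

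The counts of all genes called in these settings ranged, for LT-HSC against MPP, from 120 to 1478 in FL around 664 and from 255 to 1721 in BM around 892. For LT-HSC against ST-HSC they ranged from 27 to 232 in FL around 109 and from 11 to 4940 in BM around 334. For ST-HSC against MPP they ranged from 33 to 1751 in FL around 441 and from 344 to 7647 in BM around 1190. For FL against BM they ranged from 372 to 1812 in LT-HSC around 1495, from 1207 to 8827 in ST-HSC around 3638 and from 261 to 3606 in MPP around 1067. The interactions ranged from 3 to 334 around 106 for LT-HSC against MPP and from 21 to 2159 around 74 for LT-HSC against ST-HSC.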

Other observations

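The genes next to the 7 markers in the RefSeq order mostly did not share their differences between LT-HSC and MPP. Tal1, a transcription factor of early blood cells that lies beside Pdzk1ip1, differed by 0.41 ± 0.14 (SE) in FL (adjusted p = 0.138) and 0.35 ± 0.14 in BM (adjusted p = 0.186), where Pdzk1ip1 differed by 4.12 and 1.78. Cyp4x1 on its other side differed by 0.14 and 0.01. Abitram, beside Ctnnal1, was lower in BM LT-HSC than in BM MPP (-0.68 ± 0.14, adjusted p = 0.00828), opposite in sign to Ctnnal1 (1.0), and was the only 1 of the 14 neighbours with a call in either source with all 18 arrays. Of all genes 3.40% were called in FL and 4.57% in BM. Tal1 in BM (0.49, adjusted p = 0.0428) and Plxna2 in FL (0.56, adjusted p = 0.0483) passed too when BM LT-HSC c was left out. Plxna2, beside Cd34, had differences of 0.56 in FL and 0.50 in BM (adjusted p = 0.0718 and 0.0985), where Cd34 was at -0.59 and -1.71.

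Other HSC surface markers also differed between FL and BM. In LT-HSC 3 of 28 were higher and 5 lower in FL (2 and 7 without BM LT-HSC c). Alcam, an adhesion molecule of the immunoglobulin family, was lower in FL in all 3 populations, at -1.99 in LT-HSC (adjusted p = 8.67e-08), -2.51 in ST-HSC and -2.20 in MPP. Itga2b, which encodes the platelet integrin CD41, was lower in FL LT-HSC (-1.27, adjusted p = 1.07e-05) and Cxcr4, the receptor for the niche chemokine Cxcl12, also (-0.90, adjusted p = 0.000738). Cdh5 was higher in FL, by 1.10 in LT-HSC (adjusted p = 0.0022) and 2.79 in ST-HSC (adjusted p = 9.12e-08), and Selp was lower in FL MPP (-1.67, adjusted p = 1.23e-06). The LT-HSC to MPP step of Selp was larger in FL by 1.66 ± 0.22 (adjusted p = 0.00176). Among the genes tied to the members, the step of Pros1 was smaller in FL, the interaction being -1.48 ± 0.23 (adjusted p = 0.00404). Cdh17 averaged 9.69 in FL MPP and 9.05 in FL ST-HSC but 5.92 in FL LT-HSC, and 5.18 to 5.41 in the BM groups.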
